A study of Homo sapiens with 30 samples.

Results

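The genes examined here encode the nuclear subunits of oxidative phosphorylation. They were followed as H9 cells, a widely used line of human embryonic stem cells, differentiated, in part toward placode. Placode is the thickened ectoderm of the embryo that gives rise to lens, inner ear and cranial sensory ganglia. Its markers rose mainly in the arm labelled PIP, as given below. Members were taken by symbol, as genes whose names in the platform annotation start with NDUFA, NDUFB, NDUFC, NDUFS or NDUFV plus a digit, COX4 to COX8, UQCR or ATP5, or are SDHA, SDHB, SDHC or SDHD. The rule found 81 genes of the 18774 with a named probe. By complex, 35 belonged to complex I, 3 to complex II, 8 to complex III, 17 to complex IV and 18 to complex V. NDUFA4, NDUFA4L2, NDUFA10, SDHB and UQCRFS1 were not analysed here. ATP5IF1, the inhibitor of complex V, and NDUFV2-AS1, an antisense RNA, encode no subunit and were kept as members, while COX7A2L is best known for joining respiratory complexes into supercomplexes.

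Total RNA from 30 samples was hybridised to Illumina bead arrays, 3 arrays in each of 10 groups. The groups were day 1 and day 3 of differentiation, which both arms share, and days 5, 7, 9 and 11 of 2 later arms, labelled NSB and PIP. All samples came from the same cell line without a genetic change named in the labels, the labels spell out neither arm name and give no agents or doses, and they call the replicates biological without saying whether these were separate cultures. Arrays of days 3 and 5 carry a pair of sample codes each, and whether these mark pooled samples is not stated. Those of days 1, 7, 9 and 11 carry single codes. Every comparison of day 3 with day 1 or day 11 therefore crosses this difference, and the day and whatever the codes mark cannot be told apart. RNA came from whole cultures, so fewer cells of a type and less RNA per cell cannot be told apart.

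The respiratory chain of the inner mitochondrial membrane passes electrons from NADH (complex I) and succinate (complex II) through ubiquinone, complex III and cytochrome c to oxygen at complex IV, and complexes I, III and IV pump protons. Complex V, the ATP synthase, lets protons return through a ring of c subunits and makes ATP. Complexes I, III, IV and V combine subunits encoded in the nucleus with a few from mitochondrial DNA, whereas complex II is wholly nuclear. Pluripotent stem cells are known for drawing much of their ATP from glycolysis, and their respiratory capacity usually grows as they specialise.

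Median unnormalised intensity ranged from 45.4 to 74.7 across the arrays, and 34.0% to 37.7% of probes were detected at a p-value under 0.05. Correlations within groups were 0.988 to 0.998. Of the 81 members, 78 were detected on at least 3 arrays and 71 on all 30. The remaining 3, COX6A2, COX7B2 and COX8C, were detected on 0 arrays. Values below are log2 intensities after background correction and quantile normalization, and differences are tested in limma with Benjamini-Hochberg adjustment over all 13488 genes tested, with a gene called at an adjusted p under 0.05. The number of arrays limits the precision. The summed log2 level of 6 pluripotency markers fell from 67.9 to 68.6 at day 1, and 54.7 to 55.1 at day 3, to 45.6 to 46.3 in NSB and 45.6 to 46.0 in PIP at day 11, where NANOG was detected on 0 and 1 of 3 arrays. CRIPTO was near background throughout, detected on 1 array at day 1. POU5F1 went from 12.26 at day 1 to 7.00 in NSB and 6.82 in PIP, still detected on 3 of 3 arrays, while LIN28A stood at 12.96, 13.12 and 13.23. The sum over 7 neural and forebrain markers reached 73.8 to 74.5 in NSB and 71.3 to 71.5 in PIP at day 11, with SOX1 detected on 0 arrays of either. The sum over 7 markers of non-neural ectoderm and placode reached 64.4 to 66.4 in PIP but 41.8 to 43.2 in NSB, where TFAP2B, GATA3 and ISL1 were detected on 0 arrays. The other 4, TFAP2A, DLX3, DLX5 and EYA1, were detected on 3 of 3 NSB arrays at day 11 and on 0 at day 1. Sums over 5 mesenchyme markers were 33.7 to 34.2 at day 1 and 32.2 to 34.2 over day 11 of both arms, and over 5 blood and endothelium markers 25.9 to 26.5 and 24.8 to 25.5. Single mesenchyme markers moved in opposite directions. PDGFRB went from 7.7 at day 1 to 9.2 in NSB and 8.7 in PIP, and COL3A1 from 1 to 3 arrays detected in each arm. TWIST1 went from 6.8 to 4.9 and 5.4, and COL1A1 from 9.7 to 9.0 and 7.8. LUM was detected on 0 arrays at day 1 and in NSB, and on 2 in PIP. The part of these shifts in the results below was not tested.

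Subunit genes peaked at day 3 more often than at any other time and were most often lowest at NSB day 11. Of 78 members, 30 (38.5%) had their highest group mean at day 3, against 12.5% of all genes tested, and 0 had their lowest there, against 11.0%. Day 1 was the highest group for 16 members (20.5%, against 22.2% of all genes) and the lowest for 17 (21.8%, against 23.2%). NSB day 11 was the lowest for 26 (33.3%, against 17.1%). The day 3 arrays carry paired sample codes and those of days 1 and 11 do not, so the peak at day 3 cannot be told apart from what these codes mark. A moderated F test over the 10 groups called 72 members, beside 90.4% of all genes. The members not called were ATP5PF and ATP5PO of the peripheral stalk of complex V, COX4I2, and NDUFA1, NDUFB6 and NDUFB11 of the membrane arm of complex I. Changes were small in size: the median range of the group means was 0.59 over members and 0.90 over all genes, and 12 members had a range over 1.

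Averaged over members and expressed as the deviation from the mean of all 30 arrays, the level was 0.17 ± 0.02 (SD, n = 3) at day 3 and 0.09 ± 0.03 at day 1. In the NSB arm it was 0.06 ± 0.06 at day 5, 0.01 ± 0.05 at day 7, -0.10 ± 0.03 at day 9 and -0.15 ± 0.06 at day 11. The PIP arm gave 0.05 ± 0.01, -0.07 ± 0.08, 0.00 ± 0.01 and -0.07 ± 0.02 on the same days. All 3 arrays of day 3 thus lay above all 6 arrays of day 11. The complexes took different courses, which the plot of complex means by array shows. Complex III had its highest mean at day 1 (0.37 ± 0.06) and stood at 0.12 ± 0.02 at day 3, whereas complexes I, II, IV and V were highest at day 3. Complex II had the widest span, from 0.40 ± 0.03 at day 3 to -0.30 ± 0.18 in NSB and -0.27 ± 0.05 in PIP at day 11. No test was made on these averages.

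**Figure D1:**
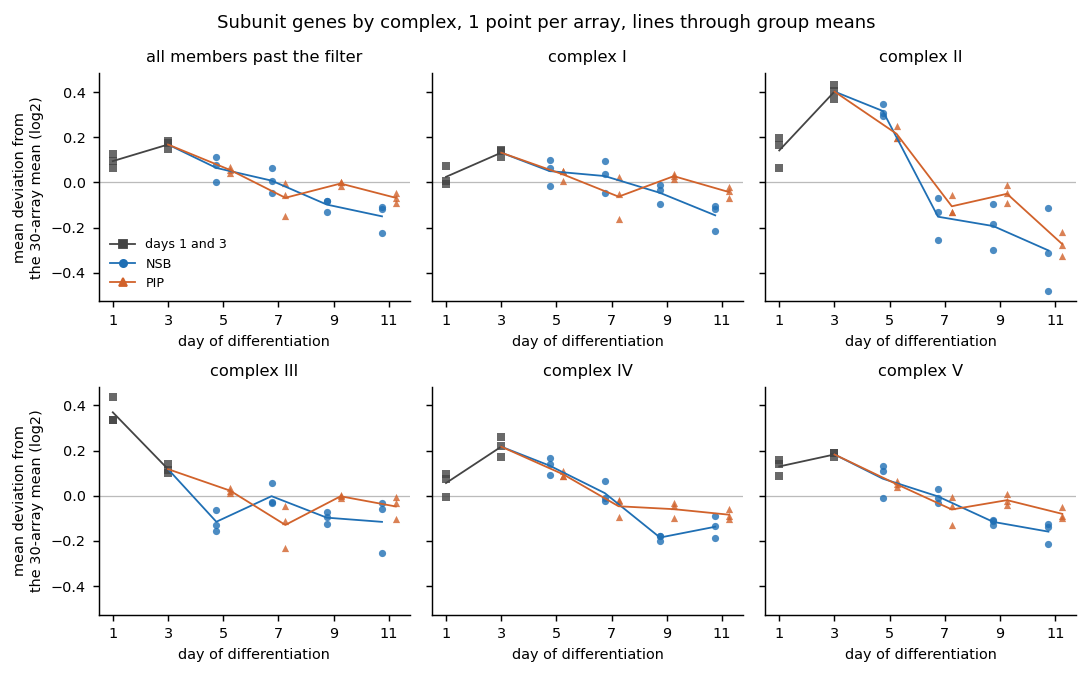
Mean deviation of the members of each complex from their 30-array means (log2) against day of differentiation, with 1 point per array, squares for days 1 and 3, circles for NSB and triangles for PIP, and lines through group means. Day 3 is the highest mean in every panel but complex III, whose arrays peak at day 1, and complex II falls from 0.40 at day 3 to -0.30 in NSB and -0.27 in PIP at day 11.

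At day 11 of the NSB arm, 49 members were called lower and 10 higher than at day 3, while 34.7% and 31.3% of all genes were called in these directions. The median difference was -0.35 over members and -0.01 over all genes. In the PIP arm 43 were called lower and 13 higher, beside 32% and 30.4% of all genes, with medians of -0.24 and -0.01. Both comparisons share the day 3 arrays, so their values stand side by side and were not set against each other. Called lower in both were 43 members and called higher in both 10. Called in opposite directions were 0, and 16 were called in neither. Day 3 was itself high for many members, and the counts moved with that choice: against day 1, an alternative added after seeing the data, NSB day 11 had 40 members lower and 14 higher, beside 36% and 34.3% of all genes. PIP day 11 had 29 lower and 17 higher, beside 35% and 34% of all genes, so the PIP share of lower members lay close to the background there. Scaling mattered for the members that rose. Median scaling of all probes moved the all-gene median to -0.43 in NSB and -0.16 in PIP. It called 1 higher and 68 lower in NSB, beside 12.1% and 55.7% of all genes. In PIP it called 5 higher and 54 lower, beside 18.6% and 38.5%. Medians set on detected probes moved the all-gene median to 0.20 and 0.10. They called 14 higher and 43 lower in NSB, beside 46.9% and 28.8%, and 10 and 43 in PIP, beside 35.5% and 28.8%.

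The split differed by complex. In complex II 3 of 3 measured genes were lower in both arms, with medians of -0.73 in NSB and -0.61 in PIP. Complex V had 14 of 18 lower and 3 higher in NSB (median -0.43) and 12 lower and 3 higher in PIP (median -0.36). Complex IV had 10 of 14 lower and 2 higher in each arm, with medians of -0.36 and -0.34. In complex I 18 of 35 were lower and 4 higher in NSB (median -0.22), and 15 lower and 6 higher in PIP (median -0.21). Complex III was the most mixed, with 4 of 8 lower and 1 higher in NSB (median -0.18) and 3 lower and 2 higher in PIP (median -0.10). Over all genes the shares lower were 34.7% in NSB and 32% in PIP, and those higher 31.3% and 30.4%. This order of complexes holds against day 3. The mean deviation of complex III went from 0.37 at day 1 to -0.12 in NSB and -0.05 in PIP at day 11, and that of complex II from 0.14 to -0.30 and -0.27. Differences between complexes were not tested.

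**Figure D2:**
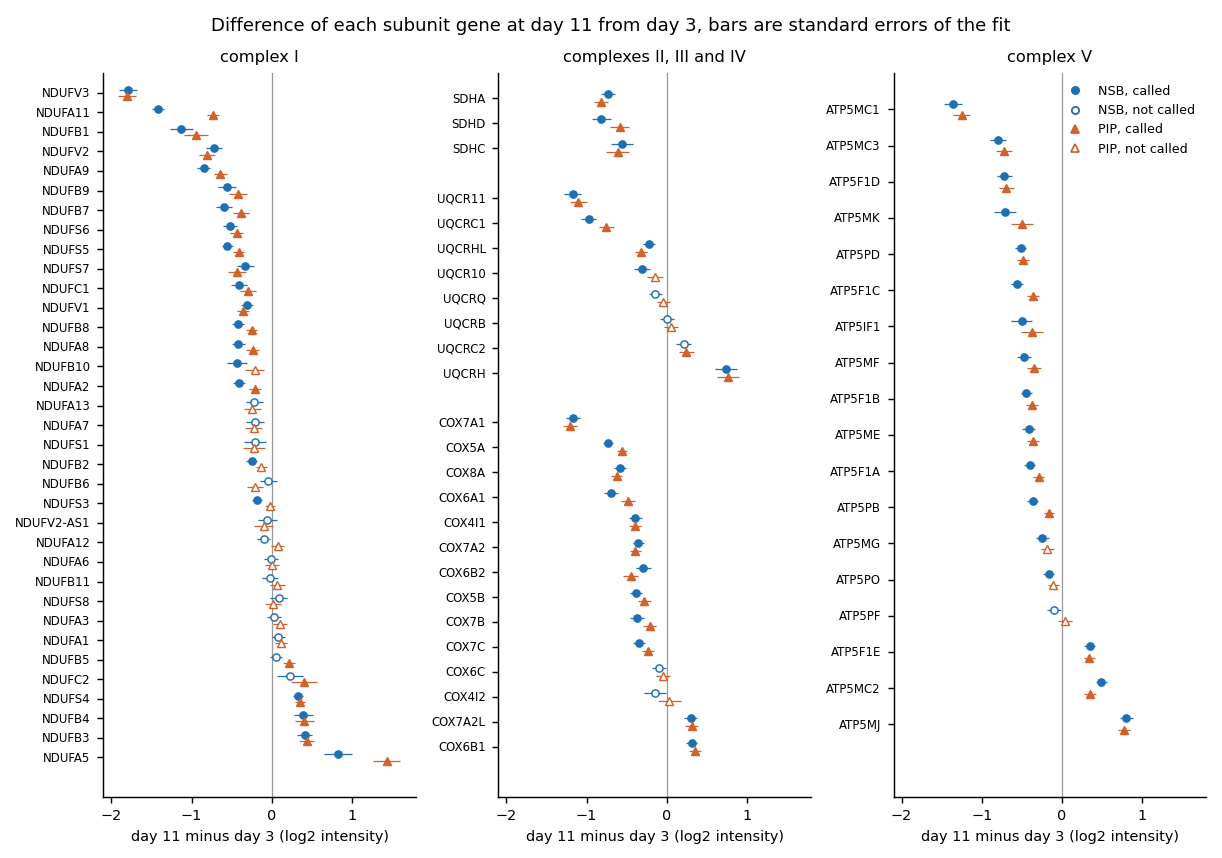
Difference of each member at day 11 from day 3 (log2 intensity, horizontal axis) by complex, with circles for NSB, triangles for PIP, filled symbols for genes called at an adjusted p under 0.05, and bars for the standard error of the fit. Most symbols lie left of 0 in both arms, from NDUFV3 at -1.79 and -1.80, while NDUFA5, UQCRH and ATP5MJ lie farthest to the right.

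Succinate dehydrogenase, complex II, also serves the tricarboxylic acid cycle, and its catalytic flavoprotein is SDHA. SDHA measured 9.53, 9.68 and 9.60 at day 3, against 8.86, 8.77 and 8.98 in NSB and 8.59, 8.91 and 8.83 in PIP at day 11. All 3 day 3 arrays were above all 6 of day 11. The differences were -0.73 ± 0.09 (SE, adjusted p = 2.8e-08) and -0.82 ± 0.09 (adjusted p = 3.45e-09), from limma. SDHD, a membrane anchor of the complex, measured 10.70, 10.61 and 10.53 at day 3, then 9.63, 9.89 and 9.88 in NSB and 10.26, 9.96 and 9.86 in PIP. These groups did not overlap either, and the limma differences were -0.82 ± 0.12 (adjusted p = 9.16e-07) and -0.59 ± 0.12 (adjusted p = 0.000104). SDHC, the other anchor, measured 9.53, 9.38 and 9.43 at day 3, against 8.53, 8.87 and 9.27 in NSB and 8.96, 8.76 and 8.79 in PIP. Its differences were -0.56 ± 0.14 (adjusted p = 0.001) and -0.61 ± 0.14 (adjusted p = 0.000431), and its NSB arrays spread widely (SD 0.37). SDHC stood at 8.91 ± 0.09 (SD, n = 3) at day 1, at the level of day 11, because it had risen by 0.54 from day 1 to day 3. A second, dim SDHA probe, detected on 20 arrays, went the other way in NSB (0.70, adjusted p = 0.000962) and measured -0.02 in PIP, so the SDHA result rests on the brighter probe.

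Of complex V, ATP5F1A and ATP5F1B of the catalytic head and ATP5F1C and ATP5F1D of the central stalk were lower in both arms. Their differences were -0.40 to -0.72 in NSB and -0.29 to -0.69 in PIP. ATP5F1B, the catalytic beta subunit, measured 14.28, 14.33 and 14.30 at day 3 and 13.90, 13.85 and 13.83 in NSB, a difference of -0.44 ± 0.07 (limma adjusted p = 3.2e-06). ATP5F1E, the small epsilon subunit of the central stalk, was higher in both, by 0.35 and 0.34. In the peripheral stalk ATP5PB and ATP5PD were lower in both arms and ATP5PO was called lower in NSB (-0.17). For ATP5PF, the probe used measured -0.10 in NSB while its other probe measured 0.32 (adjusted p = 0.00275). The inhibitor gene ATP5IF1 was lower in both, with differences of -0.50 and -0.38.

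The proton-carrying c subunit is made from 3 genes whose mature proteins are identical, ATP5MC1, ATP5MC2 and ATP5MC3, and these genes moved apart. ATP5MC1 measured 10.97, 11.07 and 11.02 at day 3, against 9.52, 9.80 and 9.67 in NSB and 9.58, 9.76 and 9.96 in PIP at day 11. It was 2.56-fold lower in NSB (-1.36 ± 0.11, limma adjusted p = 1.24e-11) and 2.38-fold lower in PIP (-1.25 ± 0.11, adjusted p = 7.59e-11), with day 3 above every day 11 array. ATP5MC3 measured 7.48, 7.44 and 7.49 at day 3, then 6.64, 6.66 and 6.71 in NSB and 6.77, 6.59 and 6.87 in PIP. It fell by 0.80 and by 0.72, again without overlap. ATP5MC2 measured 13.44, 13.44 and 13.46 at day 3, then 13.92, 13.93 and 13.96 in NSB and 13.73, 13.83 and 13.80 in PIP. All 6 day 11 arrays of ATP5MC2 lay above day 3, by 0.49 ± 0.07 (limma adjusted p = 1.48e-06) and 0.34 ± 0.07 (adjusted p = 0.000217). Under median scaling of all probes the NSB difference was 0.14 (adjusted p = 0.282). Its 2 other probes also measured higher, by 0.90 and 0.43 in NSB and 0.70 and 0.32 in PIP. The second ATP5MC1 probe was lower too, with differences of -1.74 and -1.48.

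**Figure D3:**
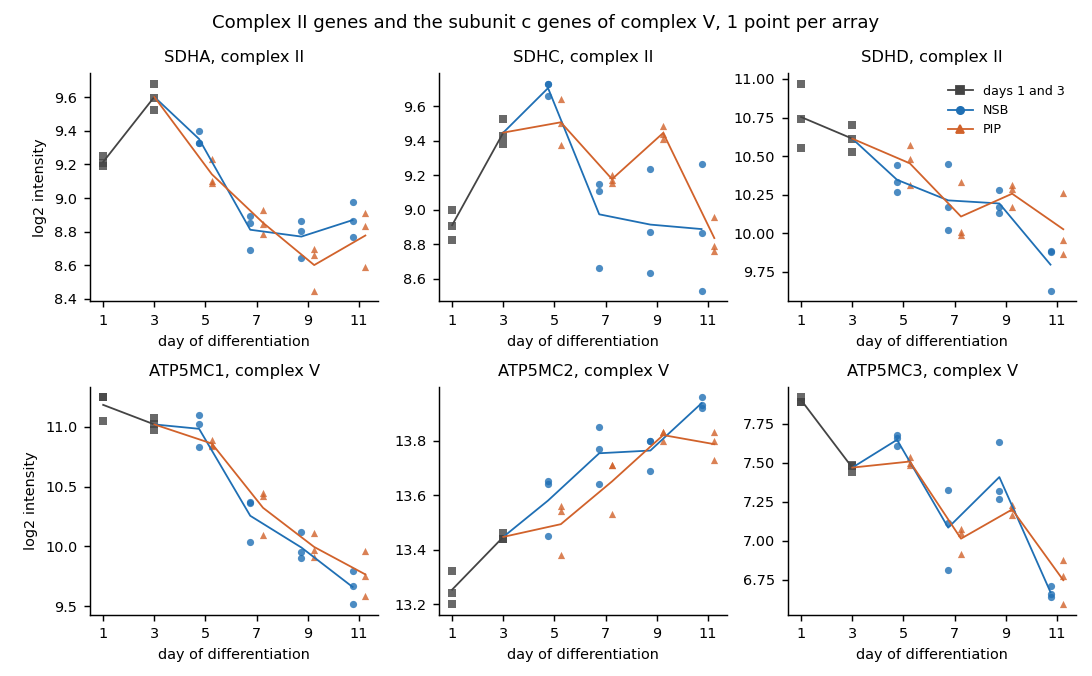
Log2 intensity of SDHA, SDHC, SDHD and the subunit c genes ATP5MC1, ATP5MC2 and ATP5MC3 against day of differentiation, 1 point per array, with squares for days 1 and 3, circles for NSB, triangles for PIP and lines through group means. Each panel has its own scale. ATP5MC1 drops from 11.02 at day 3 to 9.66 in NSB and 9.77 in PIP at day 11, and ATP5MC2 climbs from 13.44 to 13.94 and 13.79.

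Promoter windows are shown for SDHA and SDHD of complex II, since SDHC had no window. They are also shown for the members farthest down or up, in the mean of both arms, that have a window with a single start in RefSeq (GRCh38.p14). These are NDUFV3, ATP5MC1 and UQCR11, lower at day 11, and ATP5MJ and UQCRH, higher. Each run is the 250 bases before the annotated start, 5′ to 3′ on the gene's strand, and capitals mark matches to the letters searched on both strands, namely the NRF1 consensus, ETS (CCGGAAG), YY1 (AAGATGGC), SP1 (GGGCGG), CREB (TGACGTCA) and ERR (TCAAGGTCA). NRF1 and the ETS factor GABPA are known regulators of respiratory genes.
SDHA, chr5:218070-218319, plus strand: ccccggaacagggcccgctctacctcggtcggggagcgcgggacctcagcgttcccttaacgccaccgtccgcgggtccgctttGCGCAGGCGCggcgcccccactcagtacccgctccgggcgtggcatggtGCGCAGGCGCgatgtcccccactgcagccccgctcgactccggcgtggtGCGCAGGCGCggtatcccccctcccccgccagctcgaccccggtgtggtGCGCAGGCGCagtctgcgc
SDHD, chr11:112086623-112086872, plus strand: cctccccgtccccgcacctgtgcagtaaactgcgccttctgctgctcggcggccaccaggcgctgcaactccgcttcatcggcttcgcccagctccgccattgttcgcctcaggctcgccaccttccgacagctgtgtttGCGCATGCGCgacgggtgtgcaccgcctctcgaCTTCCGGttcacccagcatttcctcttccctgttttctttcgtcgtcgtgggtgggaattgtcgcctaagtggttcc
UQCR11, chr19:1605463-1605712, minus strand: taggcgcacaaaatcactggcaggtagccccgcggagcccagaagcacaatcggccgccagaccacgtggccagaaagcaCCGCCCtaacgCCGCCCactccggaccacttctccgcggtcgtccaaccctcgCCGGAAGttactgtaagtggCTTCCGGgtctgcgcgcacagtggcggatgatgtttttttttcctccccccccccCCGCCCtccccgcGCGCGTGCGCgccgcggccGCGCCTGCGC
NDUFV3, chr21:42893059-42893308, plus strand: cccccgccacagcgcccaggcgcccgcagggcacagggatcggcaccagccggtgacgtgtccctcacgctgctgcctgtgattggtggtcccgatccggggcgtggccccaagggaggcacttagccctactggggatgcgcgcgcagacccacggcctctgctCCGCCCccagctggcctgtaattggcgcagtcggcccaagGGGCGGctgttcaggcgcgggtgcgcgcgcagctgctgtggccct
ATP5MC1, chr17:48892537-48892786, plus strand: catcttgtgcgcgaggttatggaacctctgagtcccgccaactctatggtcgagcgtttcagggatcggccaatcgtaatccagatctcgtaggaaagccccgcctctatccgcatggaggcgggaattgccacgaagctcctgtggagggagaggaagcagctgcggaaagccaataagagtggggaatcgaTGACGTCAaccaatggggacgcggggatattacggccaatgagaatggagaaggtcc
ATP5MJ, chr14:103921530-103921779, minus strand: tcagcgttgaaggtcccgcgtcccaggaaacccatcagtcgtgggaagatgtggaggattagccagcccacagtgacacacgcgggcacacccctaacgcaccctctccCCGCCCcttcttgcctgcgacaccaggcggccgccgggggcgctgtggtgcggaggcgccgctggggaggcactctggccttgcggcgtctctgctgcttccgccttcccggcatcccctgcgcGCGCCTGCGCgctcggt
UQCRH, chr1:46303448-46303697, plus strand: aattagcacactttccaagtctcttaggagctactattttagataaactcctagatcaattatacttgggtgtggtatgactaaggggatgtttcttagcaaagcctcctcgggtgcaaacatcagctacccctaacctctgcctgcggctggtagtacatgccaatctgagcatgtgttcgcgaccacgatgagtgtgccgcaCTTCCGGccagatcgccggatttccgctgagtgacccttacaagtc

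SDHA carries 4 NRF1 matches in this stretch, SDHD an NRF1 and an ETS match, and UQCR11 matches to NRF1, ETS and SP1. ATP5MC1, with a larger fall than UQCR11, has a CREB match alone, and NDUFV3 has 2 SP1 matches. Of the genes that rose, ATP5MJ holds an NRF1 and an SP1 match and UQCRH an ETS match. NDUFA5 and ATP5MC2, which list 3 starts each, held no match in the 250 bases before the first. Over the full windows of all its starts, each of these genes had 1 SP1 match. RefSeq windows of 300 bases, with 50 bases after the start, were found for 67 members, 80 windows in all since some genes list several starts. NRF1 letters were in 20% of the member windows, against 7.35% of the windows of genes named on the array and 5.78% of all 35116 windows. ETS letters were in 26.2% against 12.5% and 10.3%, YY1 letters in 15% against 3.5% and 2.89%, and SP1 letters in 61.2% against 55.7% and 45%. CREB letters were in 3.75% against 2.29% and 1.85%, and ERR letters in 1.25% against 0.269% and 0.353%. Of the 40 windows of members lower in both arms, 22.5% held NRF1 letters and 27.5% ETS letters. Of the 15 windows of members higher in both, 13.3% held each, which is 2 windows. A match is a run of letters and not a binding site, and matches of different motifs overlapped in 1 member window.

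Among complex I genes NDUFV3, an accessory subunit of the flavoprotein module that takes up NADH, had the lowest difference of all members. NDUFV3 measured 7.75, 7.77 and 7.77 at day 3, against 5.87, 6.15 and 5.91 in NSB and 5.98, 5.76 and 6.16 in PIP at day 11. Every day 11 array lay below every day 3 array, and NDUFV3 was lower by 3.45-fold (-1.79 ± 0.11, limma adjusted p = 5.72e-14) in NSB and by 3.48-fold (-1.80 ± 0.11, adjusted p = 5.69e-14) in PIP. Day 1 stood between, at 6.92 ± 0.11 (SD, n = 3). NDUFA11, an accessory subunit of the membrane arm, measured 11.85, 11.66 and 11.65 at day 3, then 10.24, 10.26 and 10.41 in NSB and 10.90, 11.01 and 11.06 in PIP. It fell by 1.42 ± 0.08 and by 0.73 ± 0.08, and the 3 groups did not overlap. NDUFB1, another membrane arm subunit, fell by 1.13 and by 0.94, NDUFA9 of the ubiquinone module by 0.85 and by 0.64, and NDUFV2, a core iron-sulfur subunit, by 0.72 and by 0.81. Of the 6 core genes measured, NDUFV1, NDUFV2 and NDUFS7 were lower in both arms. NDUFS3 was called lower in NSB (-0.18) and measured -0.03 in PIP, and the arms did not pass the test against each other at day 11 (0.15, limma adjusted p = 0.0698), and NDUFS1 and NDUFS8 did not pass the test in either.

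Members that rose included NDUFA5, an accessory subunit beside the ubiquinone module. NDUFA5 measured 5.10, 5.29 and 5.09 at day 3, where it was detected on 1 of 3 arrays, then 5.71, 6.24 and 6.01 in NSB and 6.83, 6.44 and 6.51 in PIP. The differences were 0.83 ± 0.17 (limma adjusted p = 0.000104) and 1.44 ± 0.17 (adjusted p = 2.35e-08), without overlap. Day 1 held 6.69 ± 0.18 (SD, n = 3), so the rise followed a fall. Against day 1, NDUFA5 measured -0.70 in NSB, which was called lower (limma adjusted p = 0.000591), and -0.09 in PIP (adjusted p = 0.64). UQCRH, the hinge protein of complex III, had the same shape, with 11.81, 11.90 and 12.25 at day 1 and 10.53, 10.61 and 10.55 at day 3. At day 11 UQCRH measured 10.95, 11.50 and 11.44 in NSB and 11.25, 11.29 and 11.42 in PIP, a rise of 0.74 ± 0.14 and 0.76 ± 0.14 (limma adjusted p = 3.3e-05 and 2.34e-05) from day 3. Against day 1 it measured -0.69 and -0.67. UQCRHL, a near copy of UQCRH, was lower, with differences of -0.22 and -0.32, and transcripts of these genes may not be told apart by the probes.

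ATP5MJ, a small membrane subunit of complex V, did not share that early dip to the same degree. It measured 10.05, 9.92 and 9.93 at day 3, 10.65, 10.86 and 10.80 in NSB and 10.78, 10.62 and 10.81 in PIP at day 11. All day 11 arrays were above day 3, by 0.80 ± 0.08 (limma adjusted p = 3.17e-10) and 0.77 ± 0.08 (adjusted p = 7.64e-10), and above the day 1 mean of 10.27 ± 0.09 (SD, n = 3). NDUFS4, an accessory subunit needed for stable complex I, rose by 0.33 and 0.35, COX6B1, which lies between the monomers of complex IV, by 0.31 and 0.35, and COX7A2L by 0.30 and 0.31. NDUFB3 and NDUFB4 of the membrane arm were higher by 0.41 and 0.39 in NSB and by 0.44 and 0.40 in PIP. The NSB and day 3 arrays overlapped for NDUFB4, and its other probe, detected on 13 arrays, measured -0.45 in NSB. Under median scaling of all probes NDUFB3 measured -0.25 in NSB, and ATP5MC2, ATP5MJ, NDUFB4 and UQCRH no longer passed the test there.

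Complex III held members of both kinds. UQCR11, its smallest accessory subunit, measured 8.16, 8.07 and 8.05 at day 3, against 6.77, 6.93 and 7.05 in NSB and 6.96, 6.88 and 7.13 in PIP. It fell by 1.17 ± 0.11 (limma adjusted p = 1.52e-10) and by 1.10 ± 0.11 (adjusted p = 5.99e-10), with no overlap. UQCRC1, a core protein of the matrix side, fell by 0.97 and by 0.75. UQCRC2, the other core protein, measured 0.21 in NSB and rose by 0.24 in PIP. UQCRB and UQCRQ, small subunits near the ubiquinone site, did not pass the test in either arm.

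Several complex IV subunits come in isoforms of different tissues. COX7A1, the heart and muscle form, was the clearest loss among them. It measured 6.62, 6.73 and 6.53 at day 1 and 6.14, 5.95 and 5.70 at day 3, and from day 7 on it was detected on 0 arrays of either arm. Its day 11 level is therefore a bound, at least 1.595-fold lower than day 3 in NSB and at least 1.665-fold lower in PIP (limma adjusted p = 2.09e-12 and 1.12e-12). The summed level of 4 muscle markers was 20.5 to 22.2 over days 1, 3 and 11. MYOG was detected on 0 arrays in each of these groups and CKM on 3 of 3 in each. MYH7 was detected on 2 of 3 at day 1, 1 at day 3 and 3 at day 11 of both arms. MYOD1, near background, was detected on 3 arrays at day 1, 2 at day 3 and 1 at day 11 of each arm. Their part in the result was not tested. COX7A2, the widely expressed partner, measured 13.78, 13.74 and 13.74 at day 3 and 13.42, 13.37 and 13.41 in NSB, a difference of -0.35, and one of -0.39 in PIP. COX4I1, COX5A, COX6A1 and COX8A, the widespread forms of their subunits, fell by 0.39 to 0.73 in NSB and by 0.40 to 0.63 in PIP. COX4I2, known from lung and for its response to oxygen, was detected on 11 of 30 arrays and did not pass any test. COX6B2, a testis form, was detected on 5 arrays and was among the genes called lower, but its levels were too near the background for a fold, and COX6A2, COX7B2 and COX8C on 0.

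The first step of differentiation went the other way for most complexes. From day 1 to day 3, 30 members were called higher and 12 lower, beside 29% and 25.4% of all genes, with a median of 0.14 over members and 0.01 over all genes. Complex IV had 9 of 14 higher and 1 lower, and complex I 17 of 35 higher and 5 lower. In complex II SDHA and SDHC rose by 0.39 and 0.54, while SDHD measured -0.14. Complex V had 2 of 18 higher, ATP5F1C and ATP5MC2, and 2 lower, ATP5MC3 and ATP5MJ, and complex III 0 higher and 4 of 8 lower. NDUFV3 rose most, from 6.81, 7.04 and 6.90 to 7.75, 7.77 and 7.77 (0.85 ± 0.11, limma adjusted p = 3.31e-07), followed by NDUFS7 (0.63), NDUFA7 (0.57), NDUFA11 (0.55) and SDHC. NDUFA5 fell (-1.53 ± 0.17, adjusted p = 1.3e-08) to a level detected on 1 of 3 arrays at day 3, so the size of its fall is uncertain. UQCRH fell by 1.43 ± 0.14, followed by NDUFC2 (-0.97, detected on 2 of 3 arrays at day 3), COX7A1 (-0.70), NDUFB4 (-0.59) and NDUFB1 (-0.45). The call of NDUFB1 was lost without day 1 replicate 3 (adjusted p = 0.103). Probes of a gene disagreed in this step for 3 members of complex V. ATP5MC2 rose by 0.19 on the probe used, while its other probes measured -0.62 and -0.72. ATP5F1D measured 0.14 and -0.54, and ATP5IF1 0.24 and -0.92, on the probe used and the other. Outside complex V, the other probes of NDUFB4 and SDHA did not share the called change. They measured 0.14 and -0.09 (limma adjusted p = 0.349 and 0.688) and were detected on 13 and 20 arrays. The direction of the whole set depended on scaling. With medians set on detected probes, 12 members were higher and 21 lower, beside 21.9% and 38.4% of all genes, and the all-gene median was -0.17. Medians of all probes gave 40 higher and 5 lower, beside 38.2% and 10.2% of all genes, with an all-gene median of 0.20. Relative to all genes the members' median was 0.12 under both median scalings. Both shift each array by a constant, so this equality was fixed in advance.

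**Figure D4:**
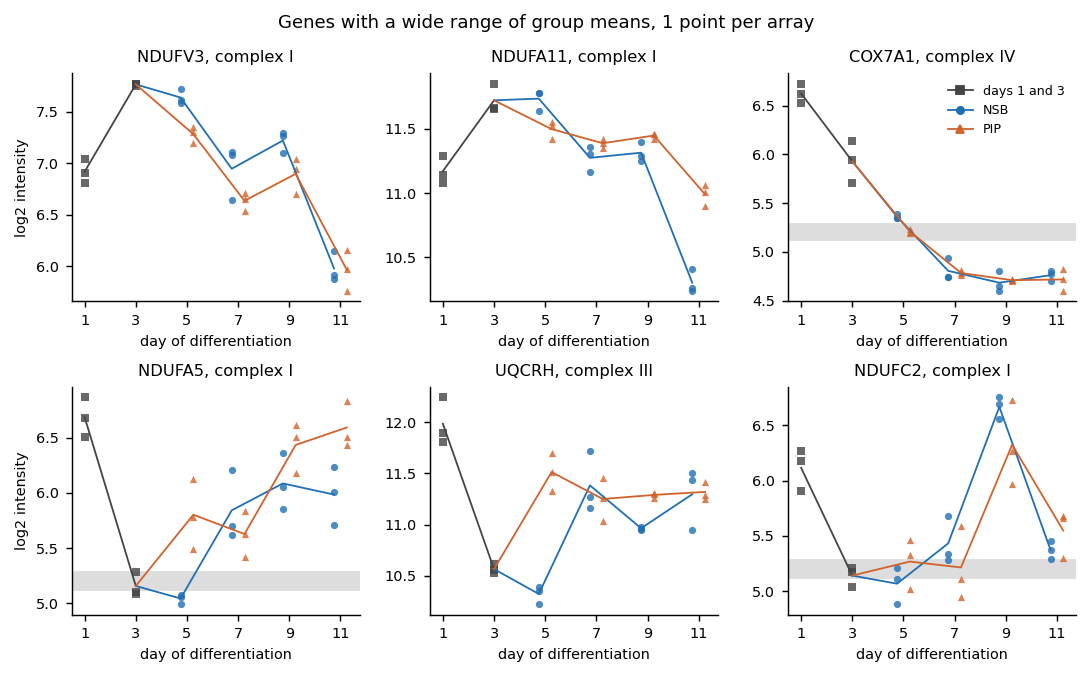
Log2 intensity of NDUFV3, NDUFA11, COX7A1, NDUFA5, UQCRH and NDUFC2 against day of differentiation, 1 point per array, with squares for days 1 and 3, circles for NSB and triangles for PIP; the grey band, 5.12 to 5.28, spans the lowest normalized values of detected probes over the arrays. NDUFV3 and NDUFA11 end lowest at day 11, COX7A1 is below the band from day 7, NDUFA5 and UQCRH dip at day 3, and NDUFC2 peaks at day 9.

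Most genes were not called between the arms, among the members as among all genes. PIP against NSB, 5 of 78 members were called higher and 3 lower at day 5 (5.93% and 5.59% of all genes), 0 higher and 4 lower at day 7 (6.51% and 5.93%), 10 higher and 1 lower at day 9 (10.3% and 10.5%) and 5 higher and 0 lower at day 11 (14.2% and 11.4%). The counts at day 5 and the higher count at day 9 thus lay near the shares of all genes. Those at day 11 lay below them under quantile normalization. Median differences were -0.05, -0.08, 0.08 and 0.07. At day 11 the count depended on scaling. Median scaling of all probes moved the all-gene median to 0.28 and called 54 higher and 0 lower, beside 39.4% and 2.37% of all genes. Medians set on detected probes called 2 higher and 4 lower, beside 10.7% and 20.1%. Relative to all genes the members' median difference at day 11 was 0.10 under both median scalings, which is equal by construction, since both shift each array by a constant. At day 5 median scaling of all probes called 2 higher and 10 lower, beside 1.66% and 9.33% of all genes. At day 7 medians on detected probes called 0 and 10, beside 5.29% and 8.15%. At day 9 median scaling of all probes called 0 and 0, beside 5.54% and 9.1%, and medians on detected probes 3 and 0, beside 11.3% and 8.67%.

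UQCRH gave the widest gap between the arms, at day 5, with 10.39, 10.35 and 10.22 in NSB and 11.70, 11.51 and 11.33 in PIP. PIP was higher by 1.19 ± 0.14 (limma adjusted p = 8.53e-07), and the groups did not overlap. The brighter probe of its near copy UQCRHL did not share this gap. UQCRHL was not called at day 5, and its group means spanned 0.44 over all groups. NDUFA5 at day 5 measured 5.06, 4.99 and 5.08 in NSB, detected on 0 arrays, and 6.13, 5.49 and 5.78 in PIP, at least 1.589-fold higher (adjusted p = 0.00345). Also called at day 5 were UQCRB (0.32), COX6B1 (0.30), COX7B (0.29), NDUFV3 (-0.36), COX8A (-0.31) and NDUFA11 (-0.24). Leaving out replicates ended the calls of UQCRB and COX7B in 3 of 6 cases, of NDUFA11 in 5 and of NDUFV3 in 6, with adjusted p-values up to 0.179.

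At day 7 PIP was lower for NDUFB3 (-0.41), UQCRB (-0.37), ATP5PB (-0.22) and NDUFS4 (-0.19), and leaving out 1 of the 6 arrays ended the call of ATP5PB in 4 cases and of NDUFS4 in 5. At day 9 SDHC measured 9.24, 8.63 and 8.87 in NSB and 9.44, 9.41 and 9.49 in PIP, higher by 0.53 ± 0.14 (limma adjusted p = 0.00662). Without NSB day 9 replicate 2, its lowest array, the difference was 0.39 (adjusted p = 0.0673). NDUFA7 was higher in PIP by 0.44, ATP5MG by 0.32, NDUFB5 by 0.27, COX6B1 by 0.27 and NDUFV2 by 0.26, and NDUFV3 was lower (-0.32). Without NSB day 9 replicate 3 the number called higher at day 9 dropped from 10 to 3, and ATP5MG (adjusted p = 0.0611) and NDUFB5 (0.0652) lost their calls. NDUFV2 lost its call without any of 5 arrays (adjusted p up to 0.248), and NDUFV3 without any of 4 (up to 0.219).

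At day 11 NDUFA11 was the clearest difference, with the values given above, 10.24 to 10.41 in NSB and 10.90 to 11.06 in PIP. PIP was higher by 0.69 ± 0.08 (limma adjusted p = 6.86e-08), and the call held without each of the 6 arrays in turn. NDUFA5 was higher by 0.61 ± 0.17 (adjusted p = 0.00816), with 5.71 to 6.24 in NSB and 6.44 to 6.83 in PIP. Its call was lost without NSB replicate 1 (0.47, adjusted p = 0.0672) and without PIP replicate 1 (0.49, adjusted p = 0.0585). ATP5PB (0.21), NDUFA2 (0.20), an accessory subunit of the NADH module, and COX5A (0.17) were called as well, each with adjusted p-values above 0.05 in 3, 4 and 6 of the 6 fits without 1 array. Without NSB day 11 replicate 1 the number of members called higher dropped from 5 to 1.

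**Figure D5:**
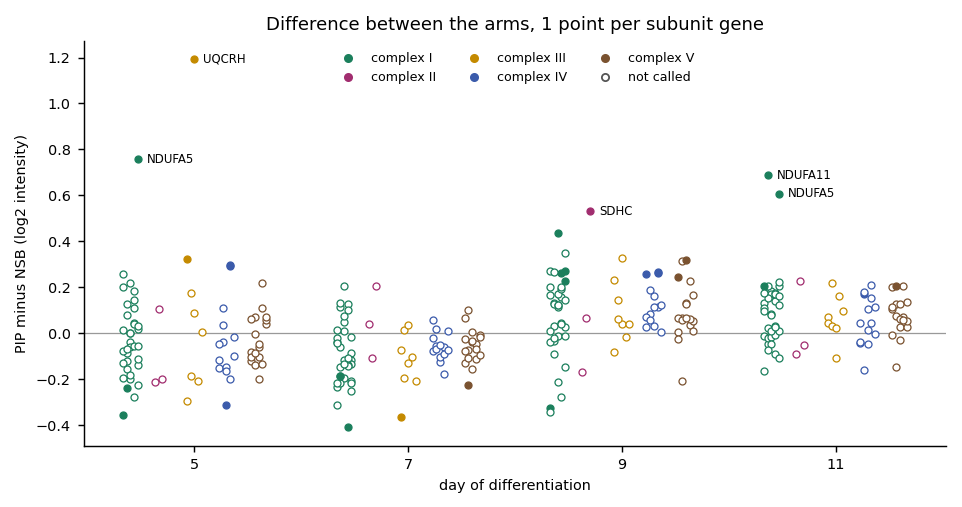
PIP minus NSB (log2 intensity, vertical axis) at days 5, 7, 9 and 11, 1 point per member, coloured by complex, with filled points for genes called at an adjusted p under 0.05 and names beside differences over 0.5 in size. Most members lie within 0.4 of 0 on every day, UQCRH at day 5 stands at 1.19, and NDUFA11 at day 11 stands at 0.69.

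The change of the arm difference from day 5 to day 11 was called for 6 members, 5 toward PIP and 1 toward NSB, beside 11.5% and 8.47% of all genes. NDUFA11 moved most toward PIP (0.93 ± 0.11, limma adjusted p = 3.69e-07), from a difference of -0.24 at day 5. UQCRH moved toward NSB by -1.17 ± 0.20 (adjusted p = 6.06e-05), since the arms differed by 0.02 at day 11. COX6A1 (0.41), UQCRC1 (0.40), NDUFA2 (0.40) and NDUFA9 (0.34) followed. Without 1 of 12 arrays in turn, NDUFA9 lost its call in 7 cases, UQCRC1 in 6 and COX6A1 in 2, and NDUFA11, NDUFA2 and UQCRH in 0. Median scaling of all probes moved the all-gene median of this change to 0.45. It called 58 members toward PIP and 1 toward NSB, beside 45% and 1.33% of all genes.

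With both arms together, day 9 was set against its neighbours, days 7 and 11 averaged, which shows members that depart from the course on either side. Higher at day 9 were 15 members and lower 12, beside 30% and 30.2% of all genes. Median scaling of all probes gave 23 and 3, beside 33.9% and 19% of all genes. NDUFC2, a membrane arm subunit of complex I, measured 6.55, 6.75 and 6.69 in NSB and 5.97, 6.27 and 6.73 in PIP at day 9. At day 7 it measured 5.34, 5.28 and 5.68 in NSB and 4.95, 5.11 and 5.59 in PIP, and at day 11 5.30, 5.46 and 5.37 in NSB and 5.66, 5.30 and 5.68 in PIP. Day 9 did not overlap with either day in either arm, and the difference over both arms together was 1.10 ± 0.10 (limma adjusted p = 2.04e-10). NDUFV3 was higher at day 9 by 0.68, UQCR11 by 0.55, NDUFA6 by 0.47, ATP5MC3 by 0.43 and NDUFA11 by 0.40. ATP5MK (-0.48), NDUFA7 (-0.45), UQCRC2 (-0.38), NDUFS4 (-0.29), COX7A2L (-0.26) and NDUFB5 (-0.26) were lower. The day itself and any handling shared by the arrays of that day cannot be told apart.

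Other genes of the pathway were read from lists by role. Of 77 mitochondrial ribosome genes tested, 60 were lower and 6 higher at NSB day 11 than at day 3, and 50 lower and 7 higher in PIP, with medians of -0.46 and -0.37. For these lists as for the members, the share of all genes called lower was 34.7% in NSB and 32% in PIP, and that called higher 31.3% and 30.4%. MRPL23 (-1.39) and MRPL12 (-1.17) were lowest in NSB, while MRPS25 (1.31) and MRPS6 (0.67) rose. In PIP MRPL23 (-1.21) and MRPL17 (-1.04) were lowest, and MRPS25 (1.12) and MRPS6 (0.71) rose. Of 16 genes of mitochondrial import and mass, 13 were lower and 0 higher in each arm, led by SLC25A4, the adenine nucleotide carrier, at -1.32 and -1.52, and by PHB1, a prohibitin, at -1.11 and -0.90. Of 11 electron carriers and others, 9 were lower and 0 higher in each arm, with ETFB, of the electron transfer flavoprotein, at -1.34 and -1.19, CHCHD4, of intermembrane space import, at -0.84 and -0.36, and COQ9, of ubiquinone synthesis, at -0.81 and -0.75. Of 41 assembly factors, 22 were lower and 8 higher in NSB and 19 and 8 in PIP. NDUFAF7, a methyltransferase that acts on complex I during assembly, had the lowest difference, -2.94 ± 0.12 in NSB and -2.89 ± 0.12 in PIP (limma adjusted p = 1.32e-18 and 2.25e-18). NDUFAF6, also of complex I assembly, measured -1.33 and -0.94, and ECSIT -1.21 and -1.17. COX11 and COA5, assembly factors of complex IV, rose by 1.44 and 1.19 in NSB and by 1.31 and 1.12 in PIP. From day 1 to day 3, 24 of the 77 mitochondrial ribosome genes were lower and 3 higher (median -0.11), beside 25.4% and 29% of all genes.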

How the data were processed

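Total RNA of H9 cells was measured on 30 Illumina bead arrays, grouped by the day and arm in the labels. The deposited table gives each probe's mean bead intensity, not normalized or background-corrected, with its standard error, the count of beads and a detection p-value, per the file headers. The bead standard errors and bead counts (37 to 40 beads per probe in the median) were deposited by the authors and used to describe the arrays. GenomeStudio is named in the submitters' processing notes, and its settings are not given in the sources used here. A second deposited table holds processed intensity values, which look background-subtracted and quantile normalized, and served as an alternative.

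Intensities were background-corrected with detection p-values (neqc, offset 16), then quantile normalized as log2 values in limma 3.58.1 (R 4.3.3). Of 48701 probes, 23687 had 1 gene symbol in the platform annotation, 35 several and 24979 none. Probes detected at p under 0.05 on at least 3 arrays were kept and the brightest probe of each gene used, leaving 13488 genes. One model with a mean per group was fitted to all 30 arrays (20 residual degrees of freedom), 9 comparisons and an F test over groups were made, two-sided, and called at a Benjamini-Hochberg adjusted p under 0.05. The script was tested on simulated data. P-values measure the spread between these samples, which may be technical, since separate cultures are not stated.

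Members, gene lists and tests were chosen with earlier results of these data known. Named were the 6 highest and 6 lowest called members per comparison, the 8 with the widest range, tissue isoforms, complex II, and, at day 11 against day 3, the 2 highest and 2 lowest called of each companion list where called in that direction; other genes named were chosen after their values were seen. Same-numbered arrays did not deviate together (mean residual correlation -0.01, and over 0.1 in 1 of 45 pairs of groups), so replicate numbers were not taken as pairs. Alternatives were scaling, background correction, filter, probe choice, the arrays in the fit, a replicate block, the day 1 baseline and leaving out each array. Promoter windows and motif letters came from RefSeq tables (GRCh38.p14).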

Additional observations from a re-analysis of the deposited data

Results flagged for a closer look

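The difference between arms changed from day 5 to day 11, by a test of that change in limma, for 6 members, and these are the results singled out for a closer look. The change was 0.9271 for NDUFA11, 0.4106 for COX6A1, 0.4023 for UQCRC1, 0.3984 for NDUFA2 and 0.3437 for NDUFA9, all toward PIP, and -1.169 for UQCRH, toward NSB, on the log2 scale. For comparison, 11.5% of all genes were called toward PIP and 8.47% toward NSB.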

How the results depend on the processing

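Of 648 repeats of the 78 named differences without 1 array, 575 kept direction and side of the threshold and 73 lost the call. Of 801 under other alternatives 723 kept both, 69 lost the call and 9 turned. Turned values were NDUFB3 in NSB under median scaling of all probes (-0.2495), NDUFB4 in NSB with the mean of its probes (-0.02748) and, against day 1 in place of day 3, NDUFB4 (-0.2012), UQCRH (-0.6894) and NDUFA5 (-0.7006) in NSB and NDUFB4 (-0.1905), NDUFC2 (-0.5655), UQCRH (-0.6658) and NDUFA5 (-0.09265) in PIP. The cause was not tested.

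Median scaling of all probes gave 5 members lower at day 3, 1 higher at NSB day 11 and 5 at PIP day 11. Between arms it gave 2 higher and 10 lower at day 5, 0 lower at day 7, 0 and 0 at day 9 and 54 higher at day 11, 58 for the change toward PIP, and 23 and 3 for day 9 against its neighbours. Medians on detected probes gave 12 higher and 21 lower at day 3, 10 lower at day 7, 3 higher and 0 lower at day 9, 2 and 4 at day 11, and 3 toward NSB. Shares of all genes under these scalings are given above for most of these counts. In addition, medians of all probes called 1.45% of all genes lower at day 7, and medians on detected probes 17.7% toward NSB. The lower count of day 9 was 0 with the authors' processed values, with no filter and with only the groups compared, beside 10.3%, 7.31% and 9.5% of all genes. With no filter 2 moved toward NSB, and the mean of probes gave 1 lower at day 11, beside 5.98% and 11.3%. Fitting only the groups compared gave 0 lower at day 7 and 2 higher at day 11, beside 2.45% and 9.93%. A fit without day 9, added after seeing the data, gave 3 higher at day 11, and one without days 3 and 5, also added, gave 2 lower at day 7, 5 higher and 0 lower at day 9 and 2 higher at day 11.

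Leaving out 1 array, the counts between arms were 3 to 5 higher and 1 to 2 lower at day 5, 2 to 8 lower at day 7, 3 to 8 higher and 0 to 1 lower at day 9, 1 to 4 higher at day 11, and 3 to 6 for the change toward PIP. For NSB day 11 they were 10 to 11 higher and 43 to 49 lower, and for PIP 10 to 13 and 40 to 44. With the replicate block, NSB day 11 had 10 higher and 49 lower and PIP 13 and 44, and no count moved by over 1.5 times. Slide as a block was not run, since no slides are given, nor was the fit without NDUFA4, which is not analysed here. COX7A1, NDUFA5 and NDUFC2 lie near background on some days, which limits their folds.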

Other observations

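Genes of the tricarboxylic acid cycle, which feeds the chain, were also read at day 11, where 34.7% of all genes were called lower and 31.3% higher than day 3 in NSB, and 32% and 30.4% in PIP. Of 14 tested, 10 were lower and 1 higher than day 3 in NSB, with a median of -0.37, and 8 lower and 1 higher in PIP, with a median of -0.24. IDH3A, a catalytic subunit of NAD-dependent isocitrate dehydrogenase, measured -1.45 ± 0.15 (SE) in NSB and -1.26 ± 0.15 in PIP (limma adjusted p = 1.47e-09 and 2.35e-08). MDH2, mitochondrial malate dehydrogenase, measured -0.73 and -0.86, and SUCLG2, a succinyl-CoA ligase subunit, rose by 0.44 and 0.60.

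Among 14 genes of a list on transcription of nuclear and mitochondrial genes for the chain, 7 were lower and 4 higher at NSB day 11, and 6 lower and 4 higher in PIP, so the share higher was near that of all genes. PPARGC1B, a coactivator of mitochondrial genes, measured -1.25 ± 0.12 and -1.29 ± 0.12 (limma adjusted p = 4.45e-10 and 2.64e-10). ESRRG, an orphan nuclear receptor known for oxidative metabolism, rose by 1.74 ± 0.13 and 2.10 ± 0.13 (adjusted p = 1.31e-12 and 2.6e-14), and GABPA by 0.70 and 0.56. PPRC1, a related coactivator, measured -0.89 and -0.63, and POLRMT, the mitochondrial RNA polymerase, -0.66 and -0.66. PPARGC1A was called higher at day 11 than at day 3, by 0.47 in NSB and 0.42 in PIP (limma adjusted p = 0.00203 and 0.00537). It had measured -1.66 ± 0.13 at day 3 against day 1 (adjusted p = 8.45e-12). CYCS, cytochrome c itself, measured -0.99 ± 0.08 from day 1 to day 3 (limma adjusted p = 1.61e-11). Of the 11 electron carriers and others, 3 were higher and 2 lower in that step. Complex IV had 9 of 14 genes called higher there, while 29% of all genes were called higher and 25.4% lower. The direction of the members in that step depended on scaling, as given above.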
